A study of Danio rerio with 16 samples.

Results

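The Notch pathway and the her genes were described as a group of 40 genes in whole zebrafish embryos. Their messenger RNA was measured by sequencing in 16 libraries, each made from 40 embryos. The members were taken by gene symbol and comprise Delta and Jagged ligands, Notch receptors, proteins that modify or sort them, the DNA-binding partner RBPJ, the feedback inhibitor NRARP and the her, hes and hey repressors. Of 60 genes whose symbol matched, 53 were listed in the files and 41 reached 1 RPKM in at least 2 libraries, out of 14758 such genes among 27257 listed. RPKM is a read count divided by the length of the gene model and by the size of the library. The remaining 7 matched genes are not analysed here. One of the 41, DLD (ENSDARG00000008785), matched by its letters only, since this symbol in capitals belongs to dihydrolipoamide dehydrogenase, a mitochondrial enzyme. It was at 32.2 and 31.7 RPKM in WT at 6-somites against 25.2 and 22.7 RPKM in WT at bud, was not called in any comparison with WT of the same stage, and was left out of every count below, so that 40 members remained.

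The embryos were injected with morpholinos against Gata5 (Gata5 morphants), Gata6 (Gata6 morphants) or both (Gata5/6 morphants), or were WT, and each kind was collected at bud, the end of gastrulation, and at 6-somites, giving 8 groups of 2 libraries. Morpholinos are antisense oligomers that hinder the making of a protein, so the level of the targeted mRNA is no check of the injection. The strain, doses, clutches, injection days, ages in hours and a control injection are not given in the labels. Nothing in the labels says that the 2 libraries of a group came from separate clutches, so the p-values measure the spread between these libraries. gata5 and gata6 encode zinc-finger transcription factors, and the study asked how they act in the specification of heart progenitors, which are a small share of a whole embryo. In such bulk RNA, fewer cells of a type and less RNA per cell cannot be told apart.

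Notch signalling passes between touching cells. A Delta or Jagged ligand on one cell binds a Notch receptor on its neighbour, the receptor is cleaved, and its intracellular part joins RBPJ on DNA and switches on targets, many of them bHLH repressors of the her, hes and hey families. Fringe enzymes such as LFNG add sugars to Notch that change its answer to ligands, and NRARP feeds back on the intracellular part. In fish embryos at these stages the pathway is best known in the presomitic mesoderm, where her1 and her7 oscillate in the segmentation clock and dlc couples the cells, and in the neural plate, where it limits how many cells become neurons.

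Depth recovered from the spacing of the deposited values ran between 19.7 M and 30.8 M reads (M, mega) per library, with a median of 28.5 M. The first principal component of all genes held 50.5% of the variance. Its scores were 14.6 to 38.4 at 6-somites and -39.6 to -14.6 at bud. At 6-somites the scores were 14.6 and 21.8 in Gata5/6, 34.9 and 37.4 in Gata5 and 25.8 and 25.5 in Gata6 morphants, against 38.4 and 34.7 in WT. The Gata5/6 and Gata6 libraries lay below WT there, and the Gata5 libraries lay within the WT range. Markers of the tissues where the pathway acts were present in every library. The 8 presomitic mesoderm genes summed to 261 to 330 RPKM at 6-somites and 285 to 406 RPKM at bud. mdm2, a p53 target that rises in stressed cells, was at 16.1 and 5.18 RPKM in Gata6 and 8.31 and 3.23 RPKM in Gata5/6 morphants at bud, against 3.32 and 2.41 RPKM in WT at bud. At 6-somites mdm2 was at 5.43 and 5.54 RPKM in Gata5/6, 9.05 and 7.35 RPKM in Gata5 and 8.56 and 6.44 RPKM in Gata6 morphants, against 3.62 and 3.37 RPKM in WT.

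The members spanned a wide range of levels. NRARP (ENSDARG00000091419) was the highest member in WT, at 69.3 and 79.2 RPKM at 6-somites and 93.5 and 109 RPKM at bud, while a second gene with that symbol (ENSDARG00000018958) was at 15.9 and 17.7 RPKM at 6-somites and 11.2 and 13.9 RPKM at bud. Of the receptors NOTCH3 was highest, at 54.9 and 62.2 RPKM in WT at 6-somites, followed by notch2 at 9.19 and 8.92 RPKM and NOTCH1 at 5.28 and 4.80 RPKM. These WT ranges at 6-somites did not overlap. Of the ligands, a DLL1 gene (ENSDARG00000020219) led at 41.9 and 42.6 RPKM in WT at 6-somites, ahead of dlc at 25.2 and 27.1 RPKM. dlb at 14.3 and 13.4 RPKM and jag2b at 12.3 and 11.8 RPKM came next, then the other DLL1 gene (ENSDARG00000010791) at 9.56 and 8.94 RPKM. jag1b at 2.80 and 2.90 RPKM and jag1a at 1.63 and 1.56 RPKM were lowest, so that the Delta group lay above the Jagged group except for jag2b. HES4 at 52.6 and 48.9 RPKM and HES6 (ENSDARG00000019335) at 48.1 and 43.8 RPKM were the highest of the repressors, and their libraries lay close together without overlapping. RPKM divides by the length the authors used, and the lengths recovered for members ran between 537 bases for dtx3la and 21059 bases for NOTCH1. Some of these, such as 19405 bases for jag1a, are longer than the mRNA of such a gene, so the order of levels between genes holds for these lengths alone.

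The 12 listed genes under 1 RPKM were her4.3, her4.4, her8.2, heyl, a pair of HES2 genes, jag2a, dll4, DTX3, dtx3lb.2, mfng and notchl. Just inside the threshold was her4.5, which exceeded 1 RPKM in 2 libraries, with 1.02 and 1.01 RPKM, and her4.2, which did so in 3. Just outside were dll4, with a highest value of 0.872 RPKM, and her8.2, with 0.840 RPKM. The her4 genes, and likewise her15.1 and her15.2, are near-identical tandem copies, and 36-base reads may be split among them, so their single values are uncertain.

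More members were called between the stages than against WT. In WT embryos 24 of the 40 members (60%) were called at 6-somites against bud at an adjusted p under 0.05, by limma with Benjamini-Hochberg adjustment over all genes, against 29.9% of all 14751 genes tested. Of these, 16 rose and 8 fell, where 20.3% of all genes rose and 9.56% fell. The median log2 change of the 40 members was 0.34, beside 0.08 over all genes. For jag1a, HELT, her4.2 and her4.5 the filter fixed the direction, since they passed 1 RPKM in 2 libraries at 6-somites alone. Of the 36 members that passed in both stages 12 rose and 8 fell (55.6%), beside 27% of the 12985 genes that did so. Their median log2 change was 0.23, beside 0.06 over those genes. Among all 40 members the 3 receptors rose, as did 4 of 7 ligands. The her, hes and hey repressors divided into 7 that rose and 6 that fell out of 19. The filter fixed the direction of jag1a among these ligands, and of HELT, her4.2 and her4.5 among the repressors that rose. The count depended on single libraries: it was 14 without the first WT library at 6-somites and 13 without the second WT library at bud.

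NOTCH1 had the highest log2 change of RPKM + 1, a scale that understates the change of low genes such as HELT. It was at 5.28 and 4.80 RPKM at 6-somites against 1.05 and 0.532 RPKM at bud in WT (5.04 ± 0.341 and 0.790 ± 0.365 RPKM, SD, n = 2 each), a log2 change of RPKM + 1 of 1.77 ± 0.17 (SE; limma adjusted p = 1.9e-05). notch2, whose protein is a further receptor of the family, was at 9.19 and 8.92 RPKM at 6-somites against 5.24 and 4.75 RPKM at bud, a log2 change of 0.75 ± 0.16 (adjusted p = 0.0051, limma). NOTCH3 was at 54.9 and 62.2 RPKM at 6-somites against 38.3 and 34.4 RPKM at bud, a log2 change of 0.67 ± 0.14 (adjusted p = 0.0044, limma). In each case both libraries at 6-somites lay above both at bud. Among the 3 receptor members the level order NOTCH3, notch2, NOTCH1 was the same at both stages, and NOTCH1 had the highest log2 change and the lowest level. NOTCH1 is here ENSDARG00000052094, the only listed gene with that symbol, so its values cover that gene alone.

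Among the ligands the Jagged genes rose and the Delta genes were mixed. jag1b was at 2.80 and 2.90 RPKM at 6-somites against 0.567 and 0.376 RPKM at bud in WT, a log2 change of 1.39 ± 0.15 (limma adjusted p = 5.4e-05). In zebrafish jag1b patterns the pharyngeal skeleton at later stages. jag2b was at 12.3 and 11.8 RPKM at 6-somites against 5.68 and 3.82 RPKM at bud, a log2 change of 1.21 ± 0.14 (limma adjusted p = 8.9e-05). jag1a rose by 0.48 ± 0.10 (adjusted p = 0.0042), although it passed 1 RPKM through the 6-somites libraries alone, which fixes that direction. dlb, a Delta of early neuron precursors in fish, was at 14.3 and 13.4 RPKM at 6-somites against 8.33 and 7.47 RPKM at bud, a log2 change of 0.74 ± 0.18 (limma adjusted p = 0.0083). The libraries of the 2 stages did not overlap for any of these genes. dlc, a Delta of the segmentation clock, was at 25.2 and 27.1 RPKM at 6-somites against 27.8 and 29.0 RPKM at bud. It was not called (log2 change -0.11 ± 0.10, limma adjusted p = 0.43). Of the DLL1 genes, ENSDARG00000010791 fell by 0.29 on the log2 scale (SE 0.09, limma adjusted p = 0.031), and ENSDARG00000020219 was not called (-0.22 ± 0.11, adjusted p = 0.17).

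**Figure D1:**
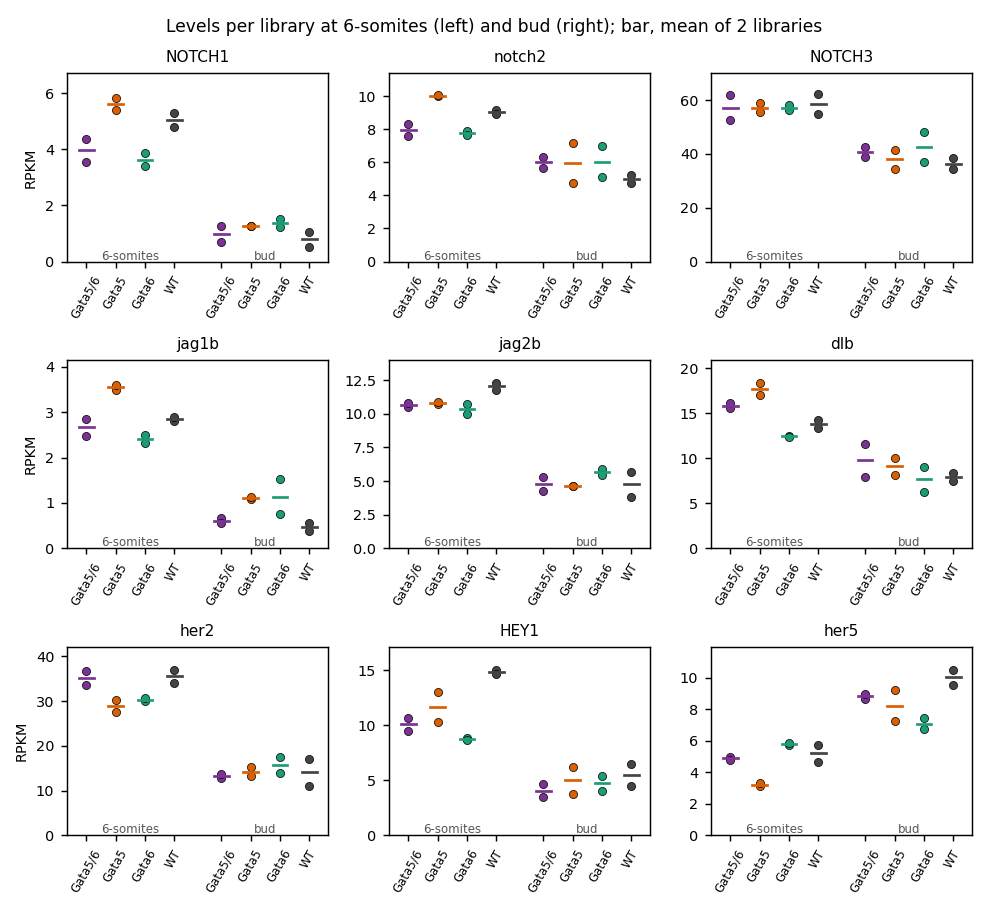
RPKM per library (points) and the mean of 2 libraries (bar) for 3 receptors, 3 ligands, her2, HEY1 and her5, with 6-somites left of bud in each panel and Gata5/6, Gata5 and Gata6 morphants left of WT. NOTCH1 lies between 3.39 and 5.83 RPKM at 6-somites and between 0.532 and 1.53 RPKM at bud, while her5 is lower at 6-somites in every kind of embryo.

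Of the genes acting between receptor and target, 1 of 7 modifiers, 1 of 2 RBPJ genes and 1 of 2 NRARP genes were called. Among the modifiers DTX4, a ubiquitin ligase of the Deltex family that binds Notch, was at 5.73 and 5.55 RPKM at 6-somites against 3.83 and 4.02 RPKM at bud (log2 change 0.43 ± 0.14, limma adjusted p = 0.041). LFNG, the fringe enzyme expressed in rhombomeres and somites, was at 47.7 and 53.8 RPKM at 6-somites against 50.3 and 49.2 RPKM at bud, and the stages overlapped. NUMB, an endocytic adaptor that holds Notch back, overlapped as well, at 2.2 and 1.76 RPKM at 6-somites against 1.69 and 1.93 RPKM at bud. One of the RBPJ genes (ENSDARG00000052091) rose by 0.55 ± 0.18 (adjusted p = 0.042, limma), with libraries at 2.22 and 2.12 RPKM at 6-somites against 1.28 and 1.07 RPKM at bud. The more abundant RBPJ gene (ENSDARG00000003398) was at 13.5 and 14.5 RPKM against 10.7 and 12 RPKM and was not called (0.28 ± 0.13, adjusted p = 0.11). The abundant NRARP gene (ENSDARG00000091419) fell by 0.44 (SE 0.11, adjusted p = 0.013, limma), and the call was lost without the first WT library at 6-somites or the second at bud (adjusted p = 0.12 in each case).

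In WT 7 repressors rose. her2 was at 34.1 and 37.0 RPKM at 6-somites against 17.1 and 11.0 RPKM at bud (log2 change 1.31 ± 0.17, limma adjusted p = 0.00019). HEY1, a target of Notch in vessels and heart of vertebrates, was at 15.0 and 14.7 RPKM at 6-somites against 6.49 and 4.52 RPKM at bud (1.30 ± 0.21, adjusted p = 0.00087). HELT, needed in mouse for GABAergic neurons of the midbrain, was at 2.76 and 1.84 RPKM at 6-somites against 0.102 and 0.387 RPKM at bud (1.40 ± 0.16, adjusted p = 7.5e-05), and behind these values stood 75 and 54 recovered reads against 3 and 10. The other HES6 gene (ENSDARG00000007097) rose by 1.11 ± 0.23 (adjusted p = 0.0042) and her4.1, a Notch target in neural tissue, by 0.88 ± 0.11 (adjusted p = 0.00011, limma). her4.2 and her4.5 rose by 0.48 and 0.41. HELT, her4.2 and her4.5 passed 1 RPKM in 6-somites libraries alone, so the filter fixed their direction.

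In WT 6 repressors fell. her5, which keeps the boundary between midbrain and hindbrain free of neurons, was at 4.67 and 5.74 RPKM at 6-somites against 9.56 and 10.5 RPKM at bud in WT (log2 change -0.83 ± 0.12, limma adjusted p = 0.00047). her11, which acts with her5 there, was at 3.81 and 4.87 RPKM against 7.40 and 7.93 RPKM (-0.71 ± 0.21, adjusted p = 0.026). HES3, which in mouse acts in the isthmic organizer, was at 17.4 and 17.9 RPKM against 28.8 and 32.1 RPKM (-0.75 ± 0.14, adjusted p = 0.0023). The clock genes were lower by less. her1 was at 17.6 and 17.3 RPKM at 6-somites against 22.1 and 24.9 RPKM at bud (-0.41 ± 0.14, adjusted p = 0.047, limma), and her7 at 12.5 and 13.6 RPKM against 17.3 and 20.9 RPKM (-0.51 ± 0.16, adjusted p = 0.034). HES6 (ENSDARG00000019335) was at 48.1 and 43.8 RPKM against 60.2 and 66.9 RPKM (-0.46 ± 0.10, adjusted p = 0.0059, limma). In zebrafish a Hes6 protein pairs with Her1 and Her7, but the symbol here covers a pair of genes that changed in opposite directions. her12, another clock gene, overlapped between the stages, at 10.7 and 12.5 RPKM against 11.3 and 8.51 RPKM. The calls of her11 and her7 held in 1 of 4 fits that each left out a WT library and that of HES6 (ENSDARG00000019335) in 2, whereas those of her5 and HES3 held in all 4. Such fits are not given here for her1, whose adjusted p in limma was the nearest of the 6 to 0.05.

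The stage change was also measured in the 3 kinds of morphant. These comparisons share no library with the WT stage comparison or with each other, but all come from 1 fit with 1 estimate of the spread for each gene. In Gata5/6 morphants 16 members rose and 3 fell, 47.5% of the 40 beside 21.3% of all genes (15.5% higher and 5.82% lower). In Gata5 morphants 13 rose and 5 fell, 45% beside 26.9% of all genes (21% and 5.84%). In Gata6 morphants 11 rose and none fell, 27.5% beside 18.5% of all genes (12.9% and 5.65%). There 2 members were lower at an unadjusted p under 0.05 in limma, and limma-voom likewise called none lower. These shares include the members whose direction the filter fixed. Of the 36 members that passed in both stages, 41.7% were called in Gata5/6, 41.7% in Gata5 and 22.2% in Gata6 morphants. Of the 12985 genes that did so, 19%, 23.7% and 16.5% were called. Median-of-ratios scaling shifted the calls downward, to 14 higher and 5 lower in Gata5/6 and 13 and 8 in Gata5 morphants. It gave 9 and 4 in Gata6 morphants and 13 and 9 in WT. The 4 lower in Gata6 were her5, her7, DLL1 (ENSDARG00000010791) and NRARP (ENSDARG00000091419). That scaling moved the median of all genes by -0.14 in Gata5 morphants and by -0.09 in each other kind of embryo. The share of all genes called is not given here for that scaling or for the fits without single libraries that follow. The Gata6 count ran from 5 without the first Gata6 library at 6-somites to 20 without the first Gata6 library at bud, and was 6 without either of the other Gata6 libraries. The Gata5/6 count was 10 without the second 6-somites library and 12 without either bud library of that kind. In all 4 kinds of embryo 9 members were called, all of them higher at 6-somites: dlb, jag1a, jag1b, jag2b, NOTCH1, her2, her4.1, HEY1 and HELT. Without jag1a and HELT, whose direction the filter fixed, 7 remained. With median-of-ratios scaling dlb and jag1a were no longer called in every kind of embryo, while the other 7 were, and her5, DLL1 (ENSDARG00000010791) and NRARP (ENSDARG00000091419) were called lower in all 4.

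**Figure D2:**
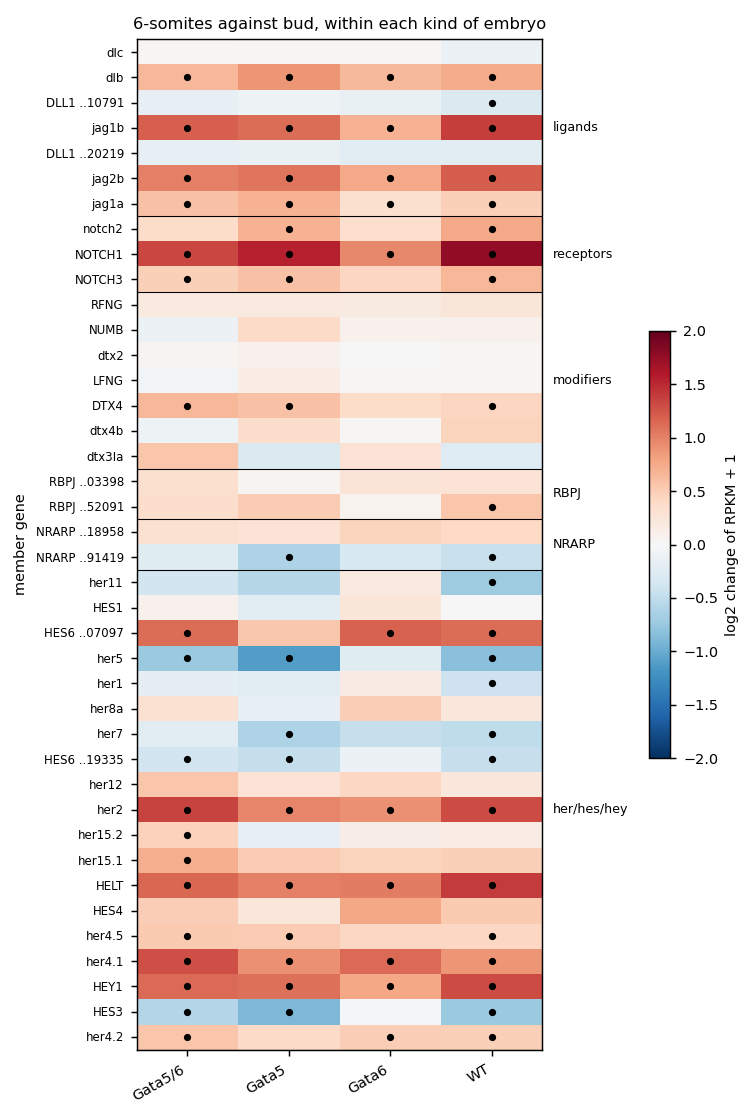
Log2 change of RPKM + 1 at 6-somites against bud for the 40 members (rows, by role) within Gata5/6, Gata5 and Gata6 morphants and WT (columns, left to right), with dots on calls at a limma adjusted p under 0.05. The 9 rows with 4 dots are all red, and the blue rows carry dots in Gata5/6, Gata5 and WT embryos but none in Gata6 embryos at the deposited scaling.

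Of the 16 members that rose in WT, 14 were called the same way in Gata5/6, 13 in Gata5 and 11 in Gata6 morphants, and all 16 had the same sign in each. The filter fixed that sign for jag1a, HELT, her4.2 and her4.5. Of the 12 that passed 1 RPKM in both stages, 10 were called the same way in Gata5/6, 10 in Gata5 and 8 in Gata6 morphants. Of all genes that rose in WT, 59% were called the same way in Gata5/6, 79.6% in Gata5 and 53.4% in Gata6 morphants. Of the 8 members that fell in WT, 3 were called lower in Gata5/6, 5 in Gata5 and 0 in Gata6 morphants with the deposited scaling, beside 42.8% in Gata5/6, 50.6% in Gata5 and 41% in Gata6 morphants of all genes that fell in WT. In Gata6 embryos 6 of the 8 had the same sign as in WT, and HES3, her1 and her11 lay as follows. HES3 was at 13.0 and 13.7 RPKM at 6-somites and 16.6 and 11.4 RPKM at bud in Gata6 morphants, and her11 was at 4.18 and 3.96 RPKM and 4.90 and 2.29 RPKM, so that both genes overlapped between the stages. her1 also overlapped there, at 12.8 and 14.1 RPKM at 6-somites and 12.9 and 11.0 RPKM at bud. In Gata5/6 morphants HES3 was at 16.1 and 17.7 RPKM at 6-somites against 24.4 and 27.1 RPKM at bud and was called lower (-0.58 ± 0.14, adjusted p = 0.014, limma).

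The difference itself was tested as the Gata6 effect at 6-somites against its effect at bud, and no member was called (0.0203% of all genes were). limma gave an unadjusted p under 0.05 for 5 members in the higher and 3 in the lower direction, beside 7.92% of all genes in either direction. limma-voom on recovered reads called none. HES3 was the nearest, at 0.71 ± 0.20 (adjusted p = 0.38), followed by NOTCH1 at -0.81 ± 0.24 (adjusted p = 0.40), her5 at 0.58 ± 0.17 (adjusted p = 0.41), jag1b at -0.69 ± 0.21 (adjusted p = 0.42) and her11 at 0.91 ± 0.30 (adjusted p = 0.47). Without the first Gata6 library at bud the values were 0.96 for HES3, 0.82 for HES4, 1.33 for her11 and 1.03 for dtx3la. That fit leaves a single Gata6 library at bud, so these values rest on it. No member was called for Gata5 (0% of all genes) or Gata5/6 (0.00678%), and limma-voom called none. There 0 and 3 members had an unadjusted p under 0.05 in limma, beside 3.09% and 8.72% of all genes.

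Against WT of the same stage few members changed. Gata6 morphants at bud had 5 members called lower and none higher, 12.5% of the 40 beside 1.63% of all 14754 genes called, 0.779% lower and 0.854% higher. No member was called in the other 5 comparisons, where the share of all genes called was 1.59% in Gata5/6 and 0.359% in Gata5 morphants at bud, and 3.8%, 0.474% and 0.339% in Gata5/6, Gata5 and Gata6 morphants at 6-somites. In limma an unadjusted p under 0.05 was reached by 1 member higher and 5 lower in Gata5/6 and 4 and 4 in Gata5 morphants at bud, and by 1 and 2, 1 and 6, and 0 and 8 in Gata5/6, Gata5 and Gata6 morphants at 6-somites. Of all genes, 14.6% in Gata5/6 and 10.7% in Gata5 morphants at bud reached it in either direction. At 6-somites the shares of all genes were 17.5%, 11.1% and 9.08% in Gata5/6, Gata5 and Gata6 morphants. limma-voom on recovered reads called none in these 5 except jag1a in Gata5/6 morphants at bud (-0.69 ± 0.15, adjusted p = 0.045), where limma on RPKM gave -0.28 ± 0.10 (adjusted p = 0.20). The comparisons at one stage share their WT libraries, so they are not independent of each other.

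**Figure D3:**
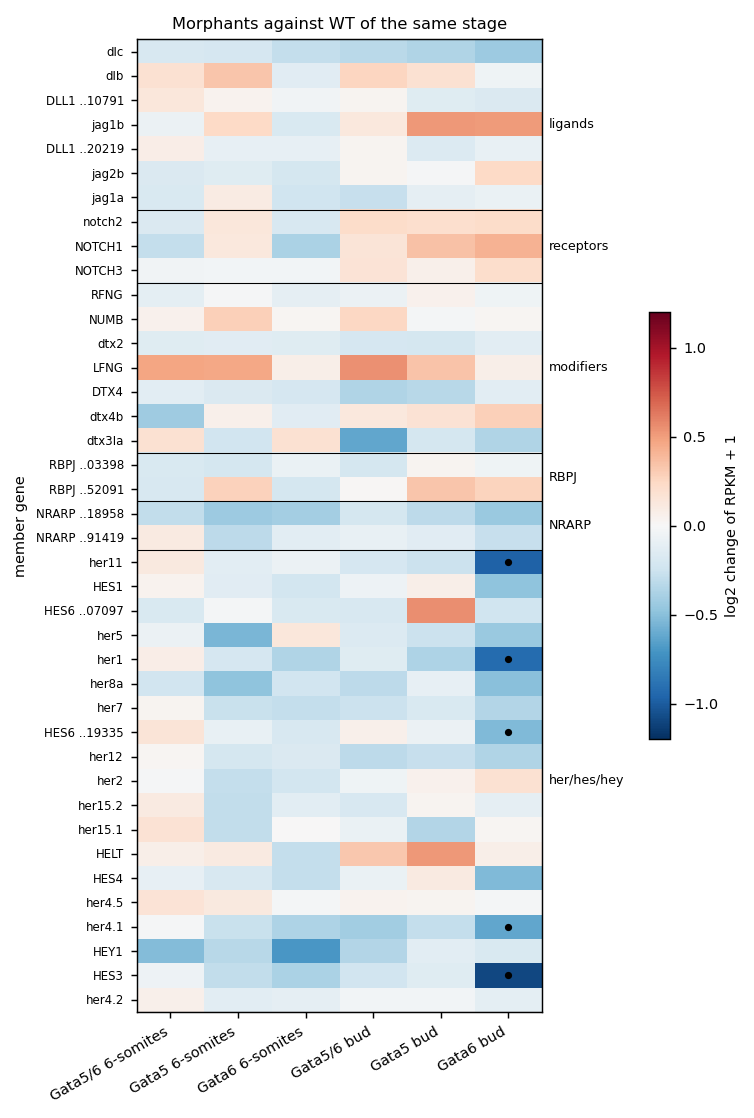
Log2 change of RPKM + 1 in Gata5/6, Gata5 and Gata6 morphants against WT of the same stage for the 40 members (rows, by role), with 6-somites left of bud and dots on calls at a limma adjusted p under 0.05. The 5 dots are all in the Gata6 bud column, on her11, her1, HES6 (ENSDARG00000019335), her4.1 and HES3.

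All 5 genes that fell in Gata6 morphants at bud belong to the 19 her, hes and hey repressors. HES3 was at 16.6 and 11.4 RPKM in Gata6 morphants against 28.8 and 32.1 RPKM in WT, a log2 change of -1.09 ± 0.14 (limma adjusted p = 0.0059). her1, an oscillator of the segmentation clock, was at 12.9 and 11.0 RPKM against 22.1 and 24.9 RPKM (-0.92 ± 0.14, adjusted p = 0.015). her11 was at 4.90 and 2.29 RPKM against 7.40 and 7.93 RPKM (-0.97 ± 0.21, adjusted p = 0.043). HES6 (ENSDARG00000019335), the most abundant of these, was at 42.9 and 44.5 RPKM in Gata6 morphants against 60.2 and 66.9 RPKM in WT (-0.53 ± 0.10, adjusted p = 0.028, limma). her4.1 was at 0.385 and 0.275 RPKM against 1.04 and 1.03 RPKM (-0.62 ± 0.11, adjusted p = 0.020), which rests on 11 and 7 recovered reads against 31 and 27, and its log2 change was -1.42 with a pseudocount of 0.1. For all 5 genes both Gata6 libraries lay below both WT libraries. For HES3, her11 and her4.1 the Gata6 libraries differed from each other more than the WT libraries did.

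The calls depended on the libraries that set the spread. Without the second WT library at bud none of the 5 was called, with adjusted p between 0.073 for HES3 and 0.23 for her11, and log2 changes of -1.01 for HES3 and -0.84 for her1. In a limma fit of the bud libraries alone none was called either (adjusted p 0.32 to 0.39). The SD over genes of the log2 difference between the libraries of a group was 0.341 to 0.475 at bud. At 6-somites it was 0.183 to 0.228. The main fit has 1 estimate of the spread per gene for both stages, so its calls at either stage do not rest on the spread of that stage alone. The call of her11 held in 1 of 4 fits that each left out a library of the groups compared, those of the other 4 genes in 3 of 4, and that of her11 was also lost with no filter (adjusted p = 0.080, limma). Without the first Gata6 library at bud, the library with the highest mdm2, the log2 changes were -1.34 for HES3, -1.03 for her1 and -1.40 for her11, from the single Gata6 library left. HES6 (ENSDARG00000019335) was at -0.50 and her4.1 at -0.68 in that fit.

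Several members lay lower without being called by limma with all libraries. dlc was at 20 and 21.4 RPKM in Gata6 morphants at bud against 27.8 and 29.0 RPKM in WT (-0.44 ± 0.10, adjusted p = 0.056, limma). It was called lower in limma with a filter at 5 RPKM (adjusted p = 0.048), with median-of-ratios scaling (0.047) and with limma-voom on recovered reads (0.049). It was not called with a pseudocount of 0.1, with no filter or with the bud libraries alone. Without the first Gata6 library at bud, which leaves that group a single library, the log2 change was -0.39. her5 was at 7.44 and 6.75 RPKM against 9.56 and 10.5 RPKM (-0.45 ± 0.12, adjusted p = 0.090, limma). The second library of that group stood apart for several genes. HES4 was at 36.0 and 15.9 RPKM in Gata6 morphants against 38.0 and 32.6 RPKM in WT, and HES1, the mammalian version of which oscillates in neural progenitors, was at 26.8 and 14.0 RPKM against 30.2 and 24.9 RPKM. Neither was called (adjusted p = 0.28 and 0.26), and their first Gata6 libraries lay within the WT range. her7, the partner of her1 in the clock, was at 12.5 and 17.5 RPKM against 17.3 and 20.9 RPKM and overlapped. On the higher side, jag1b was at 1.52 and 0.749 RPKM in Gata6 morphants against 0.567 and 0.376 RPKM in WT and was not called. Over the 19 repressors the median log2 change was -0.36, against -0.08 over the 7 ligands, 0.22 over the 3 receptors and 0.00 over all genes.

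Other values are set beside this result, and their part in it was not tested. The 10 neural plate genes, none of them called, summed to 431 and 451 RPKM in Gata6 morphants at bud against 502 and 558 RPKM in WT. The 8 presomitic mesoderm genes, none of them called, summed to 285 and 362 RPKM against 331 and 362 RPKM, and overlapped. The 7 genes of the p53 response, of which TP53INP1 was called higher, summed to 384 and 237 RPKM against 111 and 129 RPKM. The first component was -14.6 and -26.9 in Gata6 morphants at bud against -24.6 and -39.6 in WT at bud, and the groups overlapped. Of the 4 blood and endothelium genes, which all rose in WT between the stages, 3 were called higher. They summed as a list of 4 to 17.7 and 13.7 RPKM against 5.08 and 3.74 RPKM. Among them TAL1 was at 2.66 and 2.34 RPKM against 0.197 and 0.460 RPKM. The 3 somite muscle genes also rose in WT between the stages, and MYOG was the 1 called higher here, at 0.728 and 0.572 RPKM against 0.140 and 0.159 RPKM. Their sums overlapped, at 24.2 and 19.4 RPKM in Gata6 morphants against 26 and 20.5 RPKM in WT, with a median log2 change of -0.01. None of the proneural and neuronal genes was called, although 10 of 15 rose in WT between the stages. That list summed to 133 and 124 RPKM against 146 and 135 RPKM. Of 4 primary neuron genes 3 rose in WT and none was called here. Their sums, 31.9 and 16.5 against 29 and 20.9 RPKM, overlapped. Of 4 yolk syncytial layer genes 3 rose in WT and none was called here. They summed to 1370 and 1230 RPKM against 1160 and 600 RPKM. HES3, her1, her11 and HES6 (ENSDARG00000019335) are also among the members that fell in WT between bud and 6-somites, whereas her4.1 rose in WT over that interval.

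**Figure D4:**
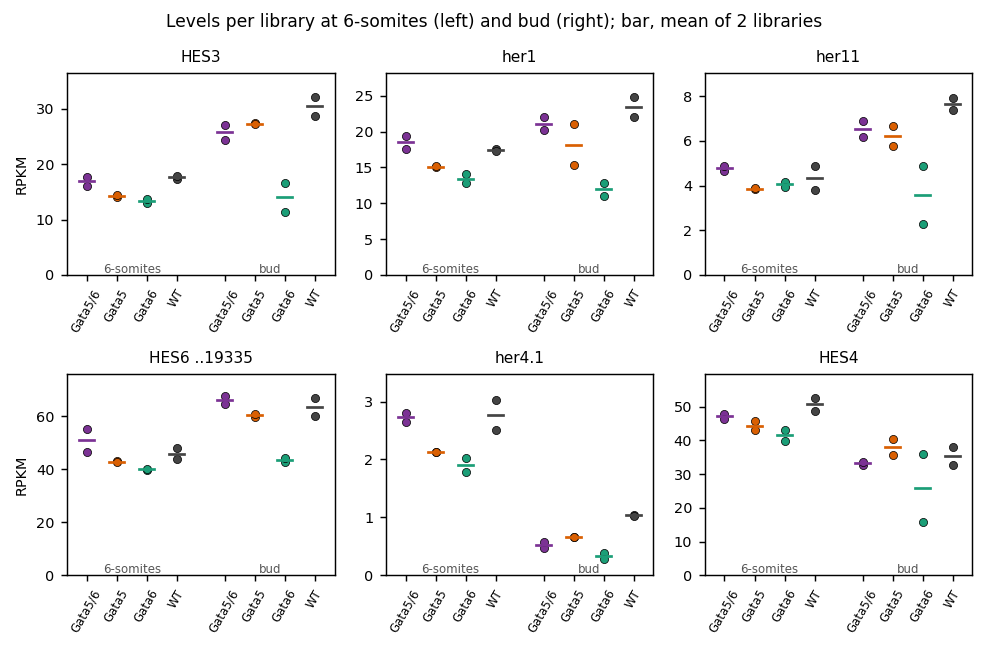
RPKM per library (points) and the mean of 2 libraries (bar) for the 5 members called lower in Gata6 morphants at bud and for HES4, with 6-somites left of bud and morphants left of WT. At bud the Gata6 points of HES3 (16.6 and 11.4 RPKM) and her1 (12.9 and 11.0 RPKM) lie below those of every other kind of embryo, and the 2 Gata6 points of HES4 lie far apart.

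None of these 5 genes was called in the other morphants by limma on log2(RPKM + 1) with both stages in the fit. HES3 was called lower in Gata5 morphants at 6-somites with the libraries of that stage alone (-0.30 ± 0.07, adjusted p = 0.044), and her4.1 in Gata5/6 morphants at bud with a pseudocount of 0.1 (-0.87 ± 0.19, adjusted p = 0.048). At bud HES3 was at 24.4 and 27.1 RPKM in Gata5/6 and 27.5 and 27.2 RPKM in Gata5 morphants against 28.8 and 32.1 RPKM in WT (adjusted p = 0.51 and 0.81, limma). her1 was at 20.2 and 22.0 RPKM in Gata5/6 and 15.3 and 21.0 RPKM in Gata5 morphants against 22.1 and 24.9 RPKM in WT (adjusted p = 0.73 and 0.37). her4.1 was at 0.475 and 0.574 RPKM in Gata5/6 and 0.669 and 0.657 RPKM in Gata5 morphants against 1.04 and 1.03 RPKM in WT (adjusted p = 0.080 and 0.33). The her4.1 libraries of every morphant lay below both WT libraries at bud. None of its near-identical copies, all under 1 RPKM at bud, did so in every morphant. In Gata6 morphants at bud her4.2, her4.3 and her4.5 overlapped with WT, her4.2 at 0.511 and 0.151 RPKM against 0.427 and 0.443 RPKM. her4.4 lay below, at 0.161 and 0.181 RPKM against 0.213 and 0.22 RPKM. At 6-somites HES3 in Gata6 morphants was at 13.0 and 13.7 RPKM against 17.4 and 17.9 RPKM in WT (-0.38 ± 0.14, adjusted p = 0.39, limma). Whether a Gata6 embryo differed from a Gata5/6 embryo was not tested.

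At 6-somites the members of Gata6 morphants lay lower as a group without a single call. Both Gata6 libraries were below both WT libraries for 27 of 40 members (67.5%) and above for 2, where 30% of all genes were below and 20.9% above. The median log2 change was -0.18, beside -0.03 over all genes. Such a shift was not particular to Gata6 morphants. In Gata5 morphants at 6-somites 57.5% of the members lay below both WT libraries, beside 25.8% of all genes. Their median log2 change was -0.14, beside 0.02 over all genes. HEY1 was the furthest, at 8.81 and 8.69 RPKM in Gata6 morphants against 15.0 and 14.7 RPKM in WT (-0.70 ± 0.21, adjusted p = 0.25, limma). NOTCH1 was at 3.86 and 3.39 RPKM against 5.28 and 4.80 RPKM (-0.38 ± 0.17, adjusted p = 0.51). When the 6-somites libraries were fitted alone with limma, 4 members were called lower in Gata6 morphants, HEY1 (adjusted p = 0.014), HES3 (0.026), her1 (0.038) and dlc (0.046). The share of all genes called in that fit is not given here. Further values are set beside this result, and their part in it was not tested. The first-component scores were 25.8 and 25.5 in Gata6 morphants against 38.4 and 34.7 in WT at 6-somites. The p53 response genes summed to 251 and 238 RPKM in Gata6 morphants against 119 and 126 RPKM in WT. They were also above WT at 6-somites in Gata5 (248 and 252 RPKM) and Gata5/6 morphants (177 and 199 RPKM). The somite muscle genes summed to 37.9 and 39.9 RPKM against 51.9 and 50.1 RPKM, and the blood and endothelium genes to 55.1 and 57.1 RPKM against 72.8 and 70.5 RPKM. The proneural genes summed to 157 and 155 RPKM in Gata6 morphants against 189 and 173 RPKM in WT, and the neural plate genes to 405 and 392 RPKM against 443 and 421 RPKM. The presomitic mesoderm genes, at 282 and 261 RPKM against 283 and 280 RPKM, overlapped. No gene of these lists was called there.

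HEY1 at 6-somites lay below WT in the other morphants too, at 9.48 and 10.7 RPKM in Gata5/6 and 10.3 and 13.0 RPKM in Gata5 morphants against 15.0 and 14.7 RPKM in WT. It was not called in either (-0.52 ± 0.21, adjusted p = 0.23, and -0.33 ± 0.21, adjusted p = 0.65, limma). With the 6-somites libraries alone it was called lower in Gata5/6 morphants (adjusted p = 0.016). At bud HEY1 overlapped with WT in all 3 kinds of morphant. For Gata5/6 and Gata5 morphants at 6-somites, 14 and 23 members had both libraries below both WT libraries, 35% and 57.5% of the 40, beside 33.1% and 25.8% of all genes. At bud 15, 11 and 15 members lay below in Gata5/6, Gata5 and Gata6 morphants (37.5%, 27.5% and 37.5%), beside 22.8%, 21.7% and 18.7% of all genes. Members above WT in both libraries numbered 6, 6 and 3 at bud in Gata5/6, Gata5 and Gata6 morphants, beside 17.7%, 14.2% and 20% of all genes, and 6 and 8 at 6-somites in Gata5/6 and Gata5 morphants, beside 27.3% and 31.2%.

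A pair of further genes, singled out after their values were seen, lay on one side of WT at both stages. dlc at bud was at 22.2 and 23.0 RPKM in Gata5/6, 19.9 and 24.2 RPKM in Gata5 and 20 and 21.4 RPKM in Gata6 morphants against 27.8 and 29.0 RPKM in WT. At 6-somites dlc was at 22.6 and 23.1 RPKM in Gata5/6, 22.5 and 22.8 RPKM in Gata5 and 20.7 and 21.8 RPKM in Gata6 morphants against 25.2 and 27.1 RPKM in WT. Every morphant library was below both WT libraries of its stage, and none of the 6 comparisons was called by limma with all libraries (adjusted p between 0.056 and 0.52), although Gata6 morphants had calls under the alternatives already given. The largest of the changes was -0.44 ± 0.10 in Gata6 morphants at bud. For dlc, as for LFNG below, the comparisons of a stage share their WT libraries. The share of all genes that lay on one side of WT in this way is not given here.

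LFNG lay above WT wherever the Gata5 morpholino was used. At bud it was at 79.6 and 67.9 RPKM in Gata5/6, 64.8 and 62.1 RPKM in Gata5 and 58.8 and 46.3 RPKM in Gata6 morphants against 50.3 and 49.2 RPKM in WT. At 6-somites it was at 66.9 and 74.1 RPKM in Gata5/6, 67.8 and 72.8 RPKM in Gata5 and 49.9 and 57.0 RPKM in Gata6 morphants against 47.7 and 53.8 RPKM in WT. The Gata6 libraries overlapped with WT at both stages, and the other morphants did not. None was called (Gata5/6 0.55 ± 0.13, adjusted p = 0.065, and Gata5 0.34 ± 0.13, adjusted p = 0.38, at bud, and 0.47 ± 0.13, adjusted p = 0.079, and 0.46 ± 0.13, adjusted p = 0.17, at 6-somites, limma). With the 6-somites libraries alone LFNG was called higher in Gata5/6 (adjusted p = 0.016) and Gata5 morphants (0.030). The less abundant NRARP gene (ENSDARG00000018958) was not called in any comparison with WT and was lowest against it in Gata6 morphants at bud, at 10.2 and 7.66 RPKM against 11.2 and 13.9 RPKM (-0.45 ± 0.16, adjusted p = 0.15, limma).

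**Figure D5:**
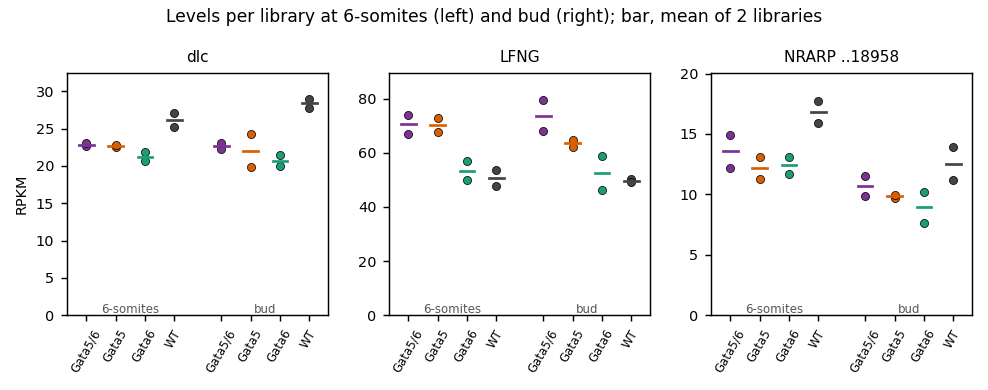
RPKM per library (points) and the mean of 2 libraries (bar) for dlc, LFNG and the NRARP gene ENSDARG00000018958, with 6-somites left of bud and morphants left of WT. All dlc points of morphants lie between 19.9 and 24.2 RPKM, below WT of their stage, and LFNG is at 62.1 RPKM or more in every library with the Gata5 morpholino.

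Other genes that work with Notch were followed in lists for receptor cleavage and glycosylation, trafficking, coactivators and corepressors, partners in segmentation and proneural genes, 70 genes tested in all. In WT 20 of them rose and 7 fell at 6-somites against bud (28.6% and 10% of the 70, beside 20.3% and 9.56% of all genes), and 10 of the 20 were among the 15 proneural and neuronal genes, 1 of which fell. ELAVL3, an RNA-binding protein of newborn neurons, was at 17.5 and 16.3 RPKM at 6-somites against 2.53 and 2.13 RPKM at bud (2.43 ± 0.19, adjusted p = 5.3e-06, limma), and NEUROD1, a proneural factor, was at 4.04 and 3.32 RPKM against 0.147 and 0.563 RPKM (1.80 ± 0.15, adjusted p = 1e-05). HEY2, a relative of HEY1, was at 3.98 and 3.59 RPKM against 1.40 and 0.776 RPKM (1.21 ± 0.19, adjusted p = 0.00066). ADAM17, a protease that can shed Notch, rose by 0.64 ± 0.13 (adjusted p = 0.0032). FGF8 and ALDH1A2, which make the opposing FGF and retinoic acid signals along the presomitic mesoderm, fell by 0.65 and 1.22 on the log2 scale (SE 0.14 and 0.19, adjusted p = 0.0051 and 0.00078, limma). The partners in segmentation did not fall as a list. Of the 15 tested, 4 were called higher and 2 lower, with a median log2 change of 0.19.

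Against WT the same 70 genes had 1 call lower in Gata6 and 1 higher and 2 lower in Gata5/6 morphants at bud, 2 lower in Gata5/6 morphants at 6-somites, and none in the other 3 comparisons. All genes were called at 1.63%, 1.59% and 3.8% in those comparisons. POGLUT1, the enzyme that puts O-glucose on Notch, was at 1.79 and 2.94 RPKM in Gata5/6 and 2.49 and 3.05 RPKM in Gata6 morphants at bud against 6.11 and 4.94 RPKM in WT (-0.97 ± 0.16, adjusted p = 0.015, and -0.79 ± 0.16, adjusted p = 0.034, limma). BHLHE41, a bHLH repressor related to the Hes family, was at 0.435 and 1.18 RPKM in Gata5/6 morphants against 5.85 and 5.03 RPKM in WT at bud (-1.86 ± 0.19, adjusted p = 0.00069). At 6-somites it was at 0.694 and 0.555 RPKM in Gata5/6 morphants against 2.79 and 2.61 RPKM in WT (-1.19 ± 0.19, adjusted p = 0.0061). mespaa, which marks the forming somite boundary, was at 1.60 and 1.97 RPKM in Gata5/6 morphants against 5.35 and 3.81 RPKM in WT at 6-somites (-0.99 ± 0.24, adjusted p = 0.048, limma), and an INSM1 gene (ENSDARG00000091756), a zinc-finger factor of neuronal precursors, was at 1.43 and 1.82 RPKM against 0.187 and 0.380 RPKM at bud (1.03 ± 0.14, adjusted p = 0.0043). For each of these genes the groups compared did not overlap.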

How the data were processed

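Per the labels' protocols, each library held polyA RNA of 40 whole embryos, sequenced on an Illumina Genome Analyzer IIx from one end over 36 bases. The authors deposited RPKM per gene, and the submitters' processing notes name genome build Zv9. Which aligner, annotation release and counting program made them is not given in the sources used here. Gene IDs were matched to symbols in a table in which duplicated copies can share a human-style symbol, and 19258 of 27257 genes had one.

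Genes with at least 1 RPKM in 2 of 16 libraries were kept. log2(RPKM + 1) was fitted with limma 3.58.1 in R 4.3.3, with a trended variance, 8 group means and 8 residual degrees of freedom, and p-values were adjusted by Benjamini-Hochberg over all genes tested. A fold change on this scale understates the change of low genes. In all 13 comparisons were made, 6 against WT, 4 of stage and 3 of the effects between stages. Whole reads came out of the spacing of the values for 99.95% of genes (tolerance 0.01 reads) and went into limma-voom as an alternative. The scripts were tested on simulated data.

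The members and lists were chosen with earlier results of these data known. The rule for named genes took the members called against WT and the 6 with the highest and the 6 with the lowest WT stage change. Others are given by role or were singled out after their values were seen.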

Additional observations from a re-analysis of the deposited data

How the results depend on the processing

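The count of 5 members lower in Gata6 morphants at bud was 4 to 6 with another pseudocount (0.1), no filter, a filter at 5 RPKM, median-of-ratios scaling, the replicate block or limma-voom. It was 0 with the bud libraries alone, and the calls changed when single libraries were left out. With the libraries of 6-somites alone the counts against WT were 3 in Gata5/6, 4 in Gata5 and 4 in Gata6 morphants. The share of all genes called is not given for these alternative fits or for those below, so their counts cannot be set against it. At bud in Gata5/6 morphants 1 member was called with limma-voom (jag1a) and 1 with the pseudocount of 0.1 (her4.1), and at 6-somites in Gata5 morphants 1 was called with median-of-ratios scaling (her5), which moved the median of all genes by -0.14 in the Gata5 stage comparison and by 0.09 or less in size elsewhere. A filter at 5 RPKM left 29 members and gave 12 called for stage in Gata5/6 and 6 in Gata6 morphants.

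Leaving out single libraries gave 13 to 18 for the WT stage count, 10 to 14 for Gata5/6, 5 to 20 for Gata6, and 0 to 4 for the Gata6 effect between stages. An alternative chosen after seeing the data left out both bud libraries of highest mdm2 (Gata6 and Gata5/6 replicate 1). It called 1 member each in Gata5 at bud, Gata5 at 6-somites and Gata5/6 at 6-somites. It leaves a single library each for Gata6 and Gata5/6 at bud, so for Gata6 at bud log2 changes alone are given. They were -1.34 for HES3, -1.03 for her1 and -1.40 for her11. Why the values moved was not tested. Over the members that passed the filter in both stages, also chosen after seeing the data, every stage count was within 1.5 times the count over all 40.

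Same-numbered libraries deviated together (correlations 0.19 to 0.56), but each comparison has a pair of numbers only and the labels tie them to nothing. With the replicate block LFNG was called in Gata5/6 morphants at 6-somites (0.47 ± 0.09, adjusted p = 0.024) and at bud (0.55 ± 0.09, adjusted p = 0.020), 1 member each, and dlc in Gata6 morphants at bud (-0.44 ± 0.08, adjusted p = 0.030).

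Among uncalled differences from WT near 0, the sign turned for her4.1 in Gata5/6 at 6-somites (0.00 with median-of-ratios scaling, -0.11 to 0.09 without single libraries). Without single libraries it turned for HES3 there (-0.13 to 0.00), for her11 at 6-somites in Gata5/6 (-0.02 to 0.26), Gata5 (-0.27 to 0.01) and Gata6 (-0.21 to 0.08), and for HES6 (ENSDARG00000019335) at bud in Gata5/6 (-0.01 to 0.14) and Gata5 (-0.14 to 0.01). Depth limits the genes with few reads, such as her4.1 and HELT at bud.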
